A study of Mus musculus with 12 samples.

Results

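R-spondins are secreted proteins that strengthen Wnt signalling. They bridge the leucine-rich repeat receptors Lgr4, Lgr5 and Lgr6 to the membrane ubiquitin ligases Znrf3 and Rnf43, which otherwise remove Frizzled receptors from the cell surface, so that more receptor stays available to Wnt ligands. In fat, Wnt signalling through beta-catenin is known to hold precursor cells back from becoming adipocytes. The genes examined were 3 R-spondins (Rspo1, Rspo2 and Rspo3) and 3 receptors (Lgr4, Lgr5 and Lgr6). They were chosen by their signal in these 4 groups, with the group levels and differences already known, so these values are given as a description, without a test. The platform annotation named a probe set for 4 of the 6 genes, Rspo1, Rspo2, Lgr5 and Lgr6, with a single probe set each among the 22626 on the array. Rspo3 and Lgr4 had none there and were not analysed here. Probe sets with several symbols or with none were not searched.

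RNA came from 12 samples of cultured fibroblasts, 3 in each of 4 groups: the GFP+ and the GFP- fraction of inguinal fat, and the same fractions of epididymal fat. Inguinal fat lies under the skin and epididymal fat inside the abdomen. All donors, GFP- groups included, were male Zfp423-GFP transgenic mice of 6 to 8 weeks on a mixed FVB and C57BL/6 background, and the labels give no more detail on the transgene. Zfp423 is a zinc-finger factor that commits fibroblasts to the fat lineage, and cells were sorted on GFP, returned to culture, fed fetal bovine serum and collected while still dividing. Whether the 3 arrays of a group stem from different mice or dishes is not stated, so the p-values given here measure spread among arrays alone, which may be technical. In bulk RNA, fewer cells of a type and less RNA per cell cannot be told apart.

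The signal of each array is a probe set intensity on a linear scale, and array medians lay between 347 and 371. To give a level that a probe set reaches without expression, 68 probe sets of olfactory, vomeronasal and taste receptor genes were taken as silent. Their 95th percentile, called the silent level here, was 65.1 and 58.0 in the GFP+ and GFP- cells of inguinal fat, and 75.4 and 77.8 in those of epididymal fat. All 12 fibroblast markers, such as Pdgfra and Col1a1, were above it in 3 of the groups and 11 of 12 in epididymal GFP- cells, where Dpt was not. Zfp423 itself averaged 124 and 57.4 in inguinal GFP+ and GFP- cells and 242 and 29.4 in epididymal GFP+ and GFP- cells. These means were above the silent level in the GFP+ groups only, but the inguinal GFP- mean lay just under its level of 58.0.

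The 2 measured R-spondins divided by depot. Rspo1 was bright in epididymal GFP- cells, low in epididymal GFP+ cells and under the silent level in both inguinal groups, whereas Rspo2 was bright in inguinal GFP+ cells, lower in inguinal GFP- cells and under the silent level in both epididymal groups. Of the 2 measured receptors, Lgr6 was higher in GFP+ than in GFP- cells of each depot, and Lgr5 was under the silent level everywhere.

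Rspo1 encodes an R-spondin that is known for its part in ovary development and as a growth factor for intestinal epithelium. Its signal was 3706, 3984 and 4247 in the 3 epididymal GFP- arrays. In epididymal GFP+ cells it read 242, 216 and 178. In inguinal GFP- cells it read 8.27, 22.7 and 13.9, and the GFP+ fraction of that depot gave 2.48, 7.3 and 15.45. The epididymal groups thus stood apart from each other and from both inguinal groups, while the inguinal groups overlapped and lay below the silent level, so no order between them can be read. Group means were 3979 ± 270.5 (SD, n = 3) in epididymal GFP- and 212 ± 32.4 in epididymal GFP+ cells, and 15.0 ± 7.29 and 8.41 ± 6.56 in the GFP- and GFP+ cells of inguinal fat.

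On the log2(signal + 16) scale, used for all differences below, Rspo1 was lower in GFP+ than GFP- epididymal cells by -4.14 ± 0.20 (SE from the fit over all 12393 genes, with a 95% interval of -4.56 to -3.71). The ratio of the linear means of these groups was 18.8. Between depots, inguinal minus epididymal gave -3.25 ± 0.20 in GFP+ and -7.04 ± 0.20 in GFP- cells. Since the inguinal signal lay under the silent level, these differences depend on the pseudocount of 16: they were -4.76 and -8.06 with a pseudocount of 1, and -1.93 and -5.68 with 64. Where a group lay under the silent level, a lower bound of the fold was taken against that level, set once for the group and once array by array, and the smaller bound is given. By this, Rspo1 was at least 3.26-fold higher in epididymal than in inguinal GFP+ cells and at least 65.6-fold higher in epididymal than in inguinal GFP- cells. The inguinal GFP+ and GFP- groups differed by -0.35 ± 0.20, with an interval of -0.78 to 0.07, and by -0.93 with a pseudocount of 1.

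**Figure D1:**
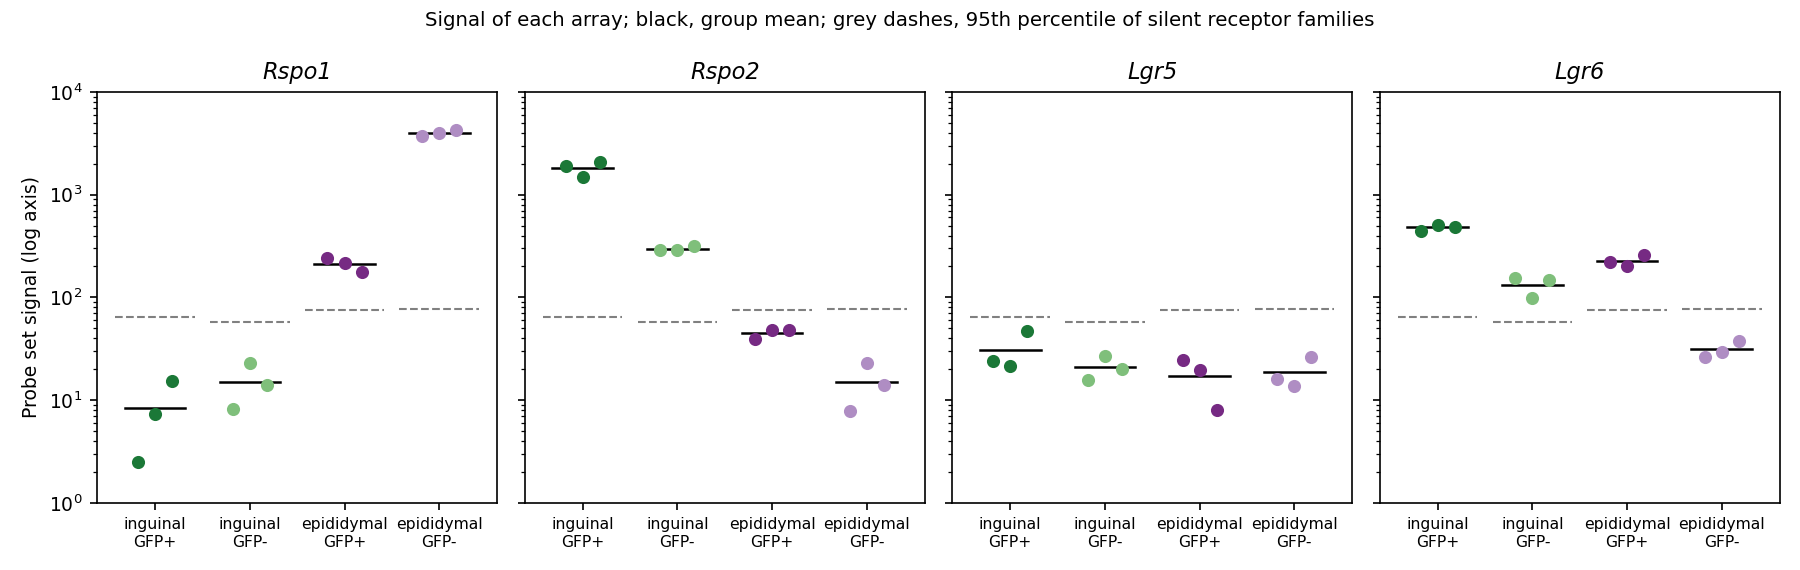
Signal of the single probe set of Rspo1, Rspo2, Lgr5 and Lgr6 on a log axis, with a point for each of the 3 arrays of a group, a black line at the group mean and grey dashes at the silent level (the 95th percentile of 68 probe sets of silent receptor families). Rspo1 reaches 3706 to 4247 in epididymal GFP- cells, Rspo2 reaches 1502 to 2063 in inguinal GFP+ cells, Lgr6 is under the dashes in epididymal GFP- cells only, and Lgr5 is under them in every group.

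Rspo2 encodes an R-spondin that is known for its part in limb and lung development. Its signal was 1890, 1502 and 2063 in inguinal GFP+ arrays. The inguinal GFP- arrays read 288, 287 and 315. In epididymal cells it read 39.6, 47.6 and 48.6 in GFP+ and 7.78, 23.0 and 13.95 in GFP- arrays. The inguinal GFP+ arrays were the highest and inguinal GFP- the next, with no overlap between any neighbouring groups, but both epididymal groups lay below the silent level, so their order is not one of measured expression. Means were 1818 ± 287 (SD, n = 3) and 297 ± 15.7 for the GFP+ and GFP- cells of inguinal fat, and 45.3 ± 4.94 and 14.9 ± 7.67 for those of epididymal fat.

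GFP+ minus GFP- was 2.54 ± 0.17 (SE) for Rspo2 in inguinal cells, with a 95% interval of 2.18 to 2.90, and the ratio of linear means was 6.13. In epididymal cells the same difference was 1.01 ± 0.17 between values that were both under the silent level, and it ran from 0.47 with a pseudocount of 64 to 1.65 with a pseudocount of 1. Between depots, Rspo2 was higher in inguinal fat by 4.89 ± 0.17 (GFP+) and 3.37 ± 0.17 (GFP-). These differences were 5.29 and 4.34 with a pseudocount of 1, and 4.10 and 2.20 with 64. As lower bounds, Rspo2 was at least 22.4-fold higher in inguinal than epididymal GFP+ cells and at least 3.82-fold higher in inguinal than epididymal GFP- cells. Rspo1 and Rspo2 were not compared in level, since the probe sets of different genes differ in brightness. Which of the depots held signal above the silent level was, however, opposite for the 2 genes in both sorted fractions.

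Lgr6, a receptor for R-spondins known as a marker of stem cells in skin, was the receptor with signal above the silent level among the 2 measured. It read 445, 512 and 483 in inguinal GFP+ cells. In epididymal GFP+ cells it read 224, 201 and 259. Inguinal GFP- cells gave 155, 99.15 and 146, and epididymal GFP- cells 26.1, 29.4 and 38.0. No group overlapped with its neighbour in this order, and epididymal GFP- was the group below the silent level. The means were 480 ± 33.4 (SD, n = 3), 228 ± 29.1, 133 ± 30.03 and 31.1 ± 6.13 in that order.

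For Lgr6, GFP+ minus GFP- was 1.75 ± 0.16 (SE; 95% interval 1.40 to 2.09) in inguinal cells, a ratio of linear means of 3.6. In epididymal cells, where GFP- lay under the silent level, it was 2.37 ± 0.16 (2.03 to 2.72), or 2.84 and 1.61 with a pseudocount of 1 and 64, and GFP+ was at least 2.93-fold higher. Inguinal minus epididymal was 1.03 ± 0.16 in GFP+ cells, a ratio of 2.10, and 1.65 ± 0.16 in GFP- cells, where inguinal signal was at least 1.72-fold higher; the last difference was 2.05 with a pseudocount of 1 and 1.04 with 64. Lgr6 was thus higher in GFP+ cells within each depot and higher in inguinal cells within each fraction. The difference between the depots in the GFP contrast, -0.62 ± 0.23 with an interval of -1.11 to -0.14, became -0.98 with a pseudocount of 1 and -0.14 with a pseudocount of 64.

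Lgr5, a receptor known as a marker of intestinal stem cells and itself a target of Wnt signalling, read between 21.4 and 46.85 in inguinal GFP+ cells. The ranges were 15.6 to 26.9 in inguinal GFP-, 8.08 to 24.5 in epididymal GFP+ and 13.65 to 26.2 in epididymal GFP- cells. All 12 arrays were under the silent level, every group overlapped with every other, and no fold is given. Differences ran from -0.07 ± 0.27 (epididymal GFP+ minus GFP-) to 0.48 ± 0.27 (inguinal minus epididymal in GFP+ cells), and each 95% interval held 0. A low signal on a single probe set does not show that the transcript was absent. The 3 measured relatives outside the R-spondin receptors, the hormone receptors Tshr and Fshr and the relaxin-family receptor Rxfp2, were also under the silent level in every group.

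**Figure D2:**
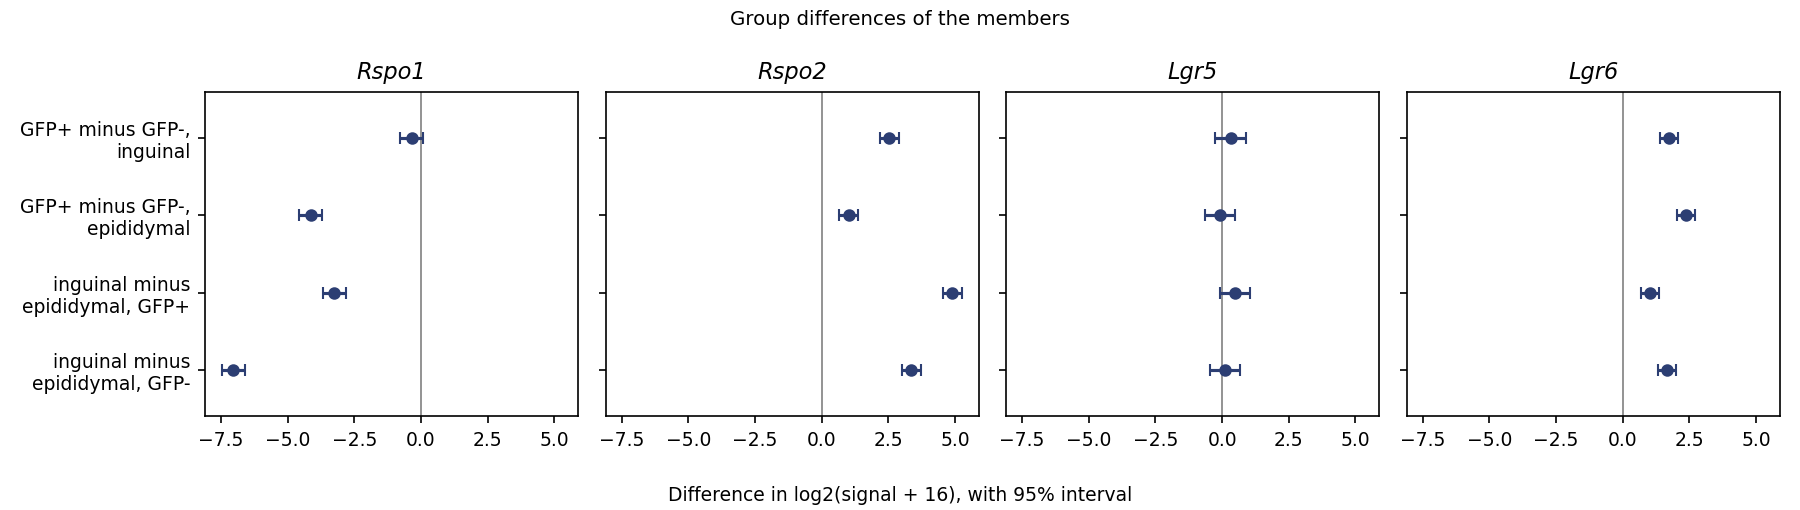
Difference in log2(signal + 16) of each gene in the 4 pairwise comparisons, as the fitted difference with its 95% interval; the line at 0 marks equal groups. Rspo1 lies to the left (down to -7.04) and Rspo2 to the right (up to 4.89) in the depot comparisons, Lgr6 lies to the right in all 4, and all intervals of Lgr5 cross 0.

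Counted over the 4 measured genes, 2 (Rspo2 and Lgr6, both higher in GFP+) had GFP+ and GFP- arrays that did not overlap in inguinal cells, where 28.7% of all 12393 genes did not overlap (12.7% higher, 15.9% lower). In epididymal cells the count was 3 of 4 (Rspo1 lower in GFP+, Rspo2 and Lgr6 higher) against 50% of all genes (25.8% higher, 24.1% lower). Both epididymal groups of Rspo2 lay under the silent level, so its order there is not one of measured expression. Inguinal and epididymal arrays did not overlap for the same 3 genes (Rspo1 lower, Rspo2 and Lgr6 higher in inguinal) in GFP+ cells, against 56% of all genes (25.6% higher, 30.4% lower). The same held in GFP- cells, against 61.1% (30.7% higher, 30.4% lower). Nothing is read from these counts, as the genes were chosen with these contrasts known, and the comparisons share arrays.

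Markers of other cells also differed between the groups. The summed signal of 11 mesothelial markers, genes of the cell layer that covers abdominal fat, lay between 40650 and 43430 in epididymal GFP- arrays, 7621 and 7830 in epididymal GFP+, 1786 and 1927 in inguinal GFP- and 2121 and 2428 in inguinal GFP+ arrays. Epididymal GFP- was therefore the group highest in both Rspo1 and these markers. Of the 11 markers, 10 were called lower in epididymal GFP+ than GFP- cells and 0 higher, against 20.3% lower and 21.5% higher of all genes, and the median difference was -2.84 against 0.01 over all genes. In the inguinal groups 4 (GFP+) and 5 (GFP-) of the 11 were above the silent level. Krt19 (1292 and 1186 in GFP+ and GFP- cells), Krt7 (564 and 148) and Cldn15 (134 and 128) were above it in both and Bnc1, Wt1 and Nkain4 in 1 of them, while Msln, Upk3b, Krt8, Krt18 and Gpm6a were under it in both, as Rspo1 was. The summed signal of 12 endothelial markers was also highest in epididymal GFP- arrays, at 6019 to 6282 against 1715 to 1770 in epididymal GFP+ and 982 to 1331 in inguinal arrays, but 8 of the 12, Pecam1, Cdh5 and Vwf among them, were under the silent level there, and Kdr alone gave 4469. The part of mesothelial or endothelial cells in the Rspo1 result was not tested.

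Beside the inguinal differences of Rspo2 and Lgr6 stood a difference in macrophage and leukocyte markers. The summed signal of 16 such genes was 11806 to 13905 in inguinal GFP- and 2380 to 2638 in inguinal GFP+ arrays, and 13 of the 16 were called lower in GFP+ cells and 0 higher, against 7.29% lower and 5.26% higher of all genes. In the epididymal groups the sums were 3128 to 3251 in GFP+ and 3561 to 3984 in GFP- arrays, and 8 of 16 were called lower and 1 higher, against 20.3% and 21.5% of all genes. Of the 16, 7 were above the silent level in epididymal GFP+ and 9 in epididymal GFP- cells, among them Lyz2 (419 and 805), Csf1r (1065 and 504) and Adgre1 (542 and 474), while C1qa, C1qb and Ptprc were under it in both. The part of these cells in the Rspo2 and Lgr6 differences was not tested. Fibroblast markers differed as well. In inguinal GFP+ cells 6 of 12 were called higher, such as Dpt (844 against 139) and Dcn (5419 against 2717), and 1 lower. In epididymal GFP+ cells 6 were higher and 4 lower, with a median difference of -0.02 against 0.01 over all genes, so the list had no common direction there. The part of fibroblasts in these differences was not tested either. Of 11 mural cell markers, 5 were called lower and 2 higher in inguinal GFP+ cells, and 3 lower and 4 higher in epididymal GFP+ cells. Endothelial markers had 0 lower and 2 higher of 12 in inguinal and 2 of each in epididymal cells. Of all genes, 12.6% were called in inguinal and 41.9% in epididymal cells. The summed signal of 9 epithelial markers was low, at 280 to 322 in inguinal and 371 to 674 in epididymal arrays, and Epcam and Cdh1 were under the silent level in every group.

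**Figure D3:**
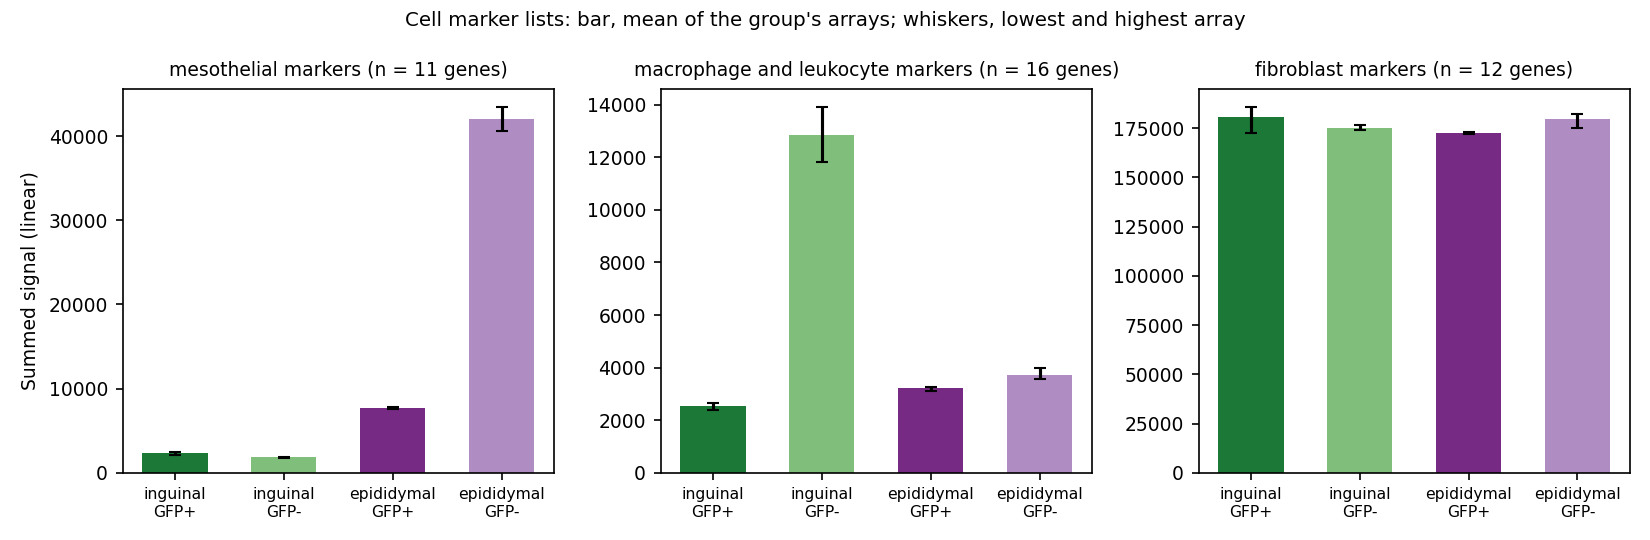
Summed linear signal of 11 mesothelial, 16 macrophage and leukocyte and 12 fibroblast markers in each group, as a bar at the mean of the 3 arrays and whiskers at the lowest and highest array. Mesothelial markers reach 40650 to 43430 in epididymal GFP- cells, macrophage markers reach 11806 to 13905 in inguinal GFP- cells, and the fibroblast sum, most of it from collagens and Fn1, lies between 171847 and 185621 in every array although 7 of its 12 genes were called in inguinal and 10 in epididymal GFP+ against GFP- cells.

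The genes with the most similar profile were sought by Pearson's r over the 12 arrays among the 1951 genes whose group means spanned at least 1 on the log2 scale. These r values are a description: the arrays fall into 4 groups of 3, and any gene that orders the groups alike reaches a high r. Closest to Rspo1 were Grb10, an adaptor protein of insulin receptor signalling (r = 0.997), Sync, an intermediate filament protein (0.996), and the integrin Itga3 (0.996). Itga3 read 3131 ± 138 (SD, n = 3) in epididymal GFP-, 467 ± 20.4 in epididymal GFP+, 145 ± 4.30 and 119 ± 1.52 in the GFP- and GFP+ cells of inguinal fat. Grb10 was bright in every group, at means of 20976, 12406, 8955 and 8402 in this order, so a high r does not mean a difference of like size. Closest to Rspo2 were the adaptor Grb14 (0.991), the chemokine Ccl8 (0.989) and the ubiquitin ligase Mylip (0.983). Ccl8 read 1192 ± 264 and 335 ± 47.6 in the GFP+ and GFP- cells of inguinal fat, and 132 ± 24.6 and 73.8 ± 4.66 in those of epididymal fat. Means of Grb14 were 5539, 3046, 2024 and 1428 in the same order, bright in every group. Closest to Lgr6 were Pi15 (0.975), the collagen Col12a1 (0.969) and the protease Pappa (0.966). Pi15 gave 482 ± 25.8, 152 ± 16.4, 188 ± 20.5 and 23.4 ± 4.32 in the same order, which is the order of groups seen for Lgr6. The 3 genes closest to Rspo1 changed with the pseudocount: 0 of them stayed among the first 3 with a pseudocount of 1, and 1 with a pseudocount of 64. Leaving out inguinal GFP+ replicate 1, inguinal GFP- replicate 1 or inguinal GFP- replicate 2 also kept 1 of the 3.

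Other genes of the pathway, which did not enter the choice of the genes above, were tested in limma over all genes with Benjamini-Hochberg adjustment at 0.05. Of 93 listed genes 87 were measured, and 58 were above the silent level in at least 1 group. In inguinal GFP+ against GFP- cells 8 rose and 9 fell, which is 19.5% of the 87 against 12.6% of all genes (5.26% higher, 7.29% lower). In epididymal cells 18 rose and 19 fell (42.5% against 41.9%, of which 21.5% higher and 20.3% lower). Inguinal against epididymal, 13 were higher and 26 lower in GFP+ cells (44.8% against 50.8%, of which 23.6% higher and 27.2% lower), and 20 higher and 25 lower in GFP- cells (51.7% against 53.7%, of which 27.4% higher and 26.3% lower). The median difference over the 87 genes in these 4 comparisons was -0.0037, -0.03, -0.16 and -0.10, against -0.01, 0.01, -0.04 and -0.02 over all genes. These shares are read as a description, since the lists were not tested as sets. The shares of all genes are also the background for the counts by list below, and nothing is read from those counts.

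**Figure D4:**
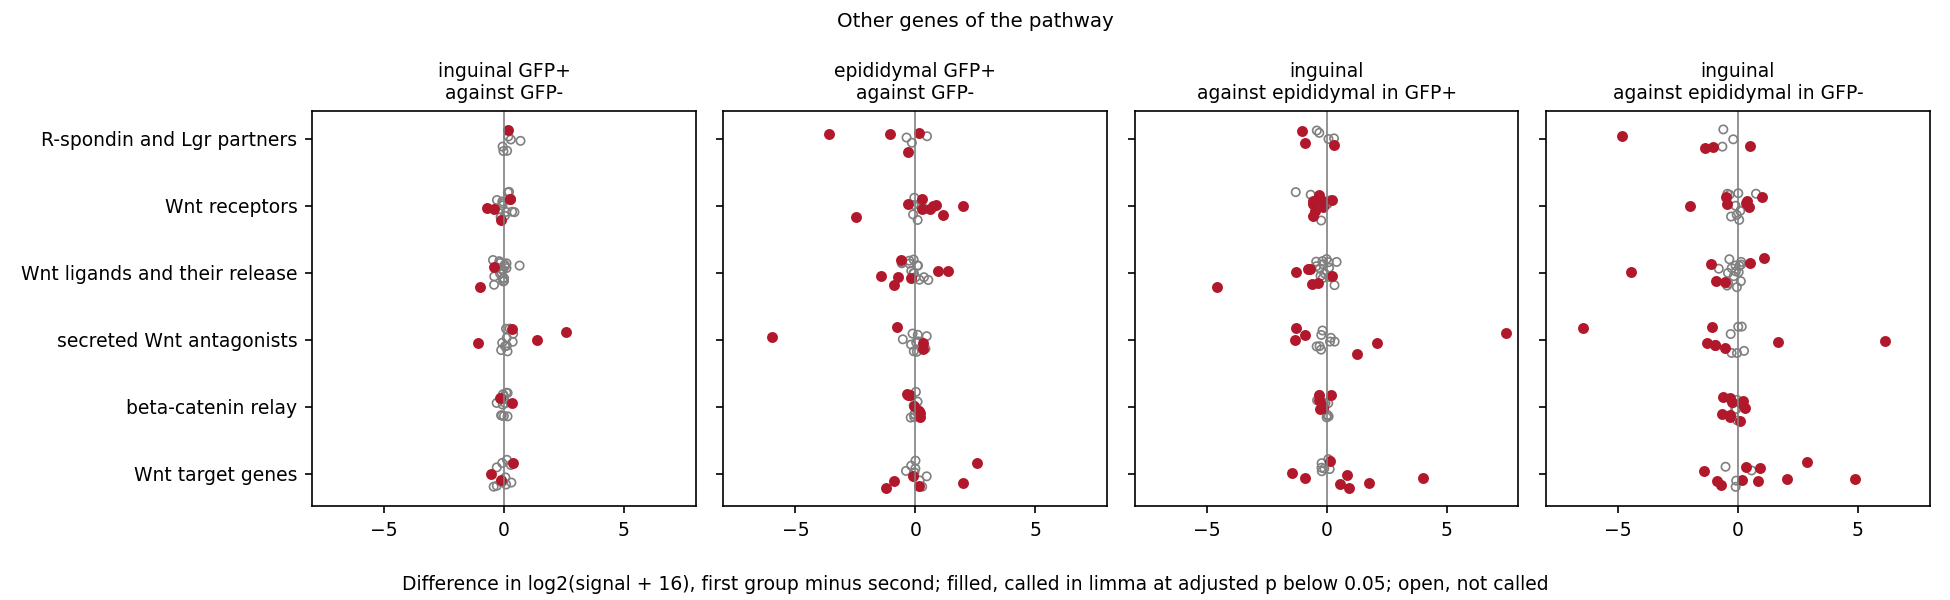
Difference in log2(signal + 16) of the 87 measured pathway genes in 6 lists, with a panel for each of the 4 comparisons; filled points are called in limma at an adjusted p below 0.05 and open points are not. Differences in inguinal GFP+ against GFP- cells reach at most 2.57 in size (Sfrp2), and the depot panels hold differences up to 7.47 (Dkk2).

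Among the partners of R-spondins and Lgr receptors, Znrf3 and Rspo4 were not analysed here. Rnf43, the other ubiquitin ligase that R-spondins restrain, averaged 7.22 and 7.14 in the GFP+ and GFP- cells of inguinal fat, and 13.1 and 21.7 in those of epididymal fat, under the silent level in all of them and called in none of the comparisons (adjusted p from 0.101 to 0.978). Without epididymal GFP- replicate 1 it was called lower in inguinal GFP- cells (-0.91, adjusted p = 0.0323). Of the 7 measured partners 1 rose and 0 fell in inguinal GFP+ cells, and 1 rose and 3 fell in epididymal GFP+ cells. The glypican Gpc3, a surface proteoglycan that can bind Wnt ligands, read 1202, 1371 and 1346 in epididymal GFP- and 85.3, 95.6 and 96.1 in epididymal GFP+ arrays. It fell by 3.61 ± 0.22 in epididymal GFP+ cells (adjusted p = 1.03e-09) and was under the silent level in both inguinal groups. As for Rspo1, epididymal GFP- was thus the highest group and epididymal GFP+ the next. Syndecan 4 (Sdc4), a proteoglycan that binds R-spondins, rose by 0.16 ± 0.03 in inguinal GFP+ cells (adjusted p = 0.00273). In epididymal GFP+ cells Sdc4 fell by 0.32 ± 0.03 (adjusted p = 5.50e-07). It was lower in inguinal than epididymal cells, by -0.89 ± 0.03 in GFP+ (adjusted p = 4.08e-12) and -1.38 ± 0.03 in GFP- cells (adjusted p = 5.19e-15). The scaffold protein Iqgap1 was higher in inguinal cells, by 0.32 in GFP+ (adjusted p = 1.02e-05) and 0.52 in GFP- cells (adjusted p = 2.37e-08), and rose by 0.14 in epididymal GFP+ cells (adjusted p = 0.0132). The call of Iqgap1 in epididymal cells was lost without epididymal GFP+ replicate 1 (adjusted p = 0.0727), without epididymal GFP- replicate 2 (0.0762), after median centring (0.0921) and with no variance trend (0.0651), and its call between depots in GFP+ cells was lost with the mean of its probe sets (0.112).

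Of 16 measured Wnt receptors and co-receptors, 2 rose and 3 fell in inguinal GFP+ cells, and 7 rose and 2 fell in epididymal GFP+ cells. Fzd6 was the clearest decrease in both, by -0.72 ± 0.09 in inguinal (adjusted p = 5.57e-05) and -2.49 ± 0.09 in epididymal cells (adjusted p = 2.49e-12). Its signal was 2659, 2487 and 2535 in epididymal GFP- against 440, 383 and 518 in epididymal GFP+ arrays. Fzd7 rose by 0.74 ± 0.04 in epididymal GFP+ cells (adjusted p = 4.05e-10). Fzd2 rose by 0.87 ± 0.05 in epididymal (adjusted p = 1.12e-09) and by 0.24 ± 0.05 in inguinal GFP+ cells (adjusted p = 0.00594). The inguinal call of Fzd2 was lost without a variance trend (adjusted p = 0.0505). Between depots, 1 receptor was higher and 8 lower in inguinal than epididymal GFP+ cells, with Ror2 higher by 0.24 (adjusted p = 0.00258) and Fzd7 lower by -0.48 (adjusted p = 1.14e-07). In GFP- cells 4 were higher and 3 lower, with Fzd4 higher by 1.02 (adjusted p = 6.58e-08) and Fzd6 lower by -2.00 (adjusted p = 2.41e-11). The co-receptor Lrp6 was bright in all groups (1406, 1478, 1563 and 1460 in the order given for Rnf43), and was called only between depots in GFP+ cells (-0.15, adjusted p = 0.026), whereas the means of Lrp5 ran from 39.3 to 61.5 and were under the silent level in each group.

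Of 21 Wnt ligands and secretion factors, 9 were above the silent level in any group. In inguinal GFP+ cells 0 rose and 2 fell, with Wnt4, a ligand known in kidney and gonad development, lower by -0.997 ± 0.13 (adjusted p = 4.73e-05). In epididymal GFP+ cells 2 rose and 5 fell; Wnt5a, a ligand known mainly for signalling without beta-catenin, rose by 1.37 ± 0.06 (adjusted p = 3.88e-11) and Wnt2 fell by 1.44 ± 0.19 (adjusted p = 7.99e-06). Wnt4 was the ligand with the clearest depot difference, with 67.4 and 148 in inguinal GFP+ and GFP- cells against 1916 and 3546 in epididymal cells. Inguinal minus epididymal was -4.56 ± 0.13 in GFP+ (adjusted p = 2.14e-13) and -4.44 ± 0.13 in GFP- cells (adjusted p = 5.21e-14). The Wnt carrier Wls was higher by 0.23 in inguinal GFP+ cells (adjusted p = 0.000182), and Porcn, which attaches the lipid of Wnt ligands, by 1.08 in inguinal GFP- cells (adjusted p = 6.66e-07). In all, 1 was higher and 6 lower in inguinal GFP+ cells, and 2 higher and 4 lower in inguinal GFP- cells.

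Among 14 secreted Wnt antagonists 3 rose and 1 fell in inguinal GFP+ cells, and 2 rose and 2 fell in epididymal GFP+ cells. Dkk2, which blocks the Lrp co-receptors, read 5947 to 6723 in inguinal GFP+ and 2371 to 2635 in inguinal GFP- arrays, and was under the silent level in both epididymal groups, as Rspo2 was. Its depot difference was 7.47 ± 0.26 in GFP+ (adjusted p = 2.45e-12) and 6.15 ± 0.26 in GFP- cells (adjusted p = 7.25e-12), or at least 80.1-fold and at least 31.6-fold higher in inguinal cells. Sfrp2, a decoy receptor of Wnt ligands, read 2442, 3600 and 3135 in epididymal GFP- cells, the group in which Rspo1 was bright, and 15.8 to 47.1 in epididymal GFP+ cells. It rose by 2.57 ± 0.34 in inguinal GFP+ cells (adjusted p = 5.71e-05) and fell by 6.00 ± 0.34 in epididymal GFP+ cells (adjusted p = 3.68e-10), and in GFP- cells inguinal minus epididymal was -6.45 ± 0.34 (adjusted p = 9.76e-11). Since Sfrp2 was under the silent level in inguinal GFP- (18.9) and epididymal GFP+ cells (33.6), these sizes depend on the pseudocount. The lower bounds were at least 3.11-fold higher in inguinal GFP+ than GFP- cells, at least 37.6-fold lower in epididymal GFP+ than GFP- cells and at least 49.9-fold lower in inguinal than epididymal GFP- cells. Igfbp4, a binding protein of insulin-like growth factors that also restrains Wnt receptors, fell by 1.09 ± 0.08 in inguinal GFP+ cells (adjusted p = 1.09e-07). In epididymal GFP+ cells Igfbp4 fell by 0.75 ± 0.08 (adjusted p = 8.25e-07). It was lower in inguinal GFP+ than epididymal GFP+ cells by -1.29 (adjusted p = 1.77e-09). Dkk3 rose by 0.31 in epididymal GFP+ cells (adjusted p = 0.00518). Between depots 3 antagonists were higher and 3 lower in inguinal GFP+ cells, and 2 higher and 6 lower in inguinal GFP- cells.

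Among the 15 measured genes of the beta-catenin relay, no difference in a pairwise comparison was larger than 0.68 in size (Bcl9 between depots in GFP- cells). Beta-catenin itself (Ctnnb1) gave GFP contrasts of 0.05 (inguinal) and -0.03 (epididymal) and was not called in any comparison. In inguinal GFP+ cells Bcl9 rose by 0.34 (adjusted p = 0.00544) and Pygo2 fell by 0.17 (adjusted p = 0.0252); both proteins help beta-catenin to activate genes. Pygo2 also fell in epididymal GFP+ cells, by 0.31 ± 0.05 (adjusted p = 3.83e-05). Its inguinal call was lost when replicate 1 or 3 of inguinal GFP+ (adjusted p = 0.103 and 0.0861) or replicate 1 or 3 of inguinal GFP- (0.0886 and 0.0888) was omitted, after median centring (0.0562) or with no variance trend (0.0928). In epididymal GFP+ cells 3 rose and 4 fell, with the scaffold gene Apc higher by 0.20 (adjusted p = 8.73e-05) and the Wnt relay protein Dvl1 lower by -0.36 (adjusted p = 9.47e-08). Averaged over its probe sets Apc gave 0.03 (adjusted p = 0.832). The kinase gene Csnk1a1 was lower in inguinal than epididymal cells, by -0.32 in GFP+ (adjusted p = 1.14e-08) and -0.34 in GFP- cells (adjusted p = 2.70e-09), but with the mean of its probe sets the difference in GFP+ cells was -0.04 (adjusted p = 0.809). The kinases Gsk3b (0.17 in GFP+, adjusted p = 0.0122) and Gsk3a (0.23 in GFP-, adjusted p = 1.70e-05) were higher in inguinal cells. In these depot comparisons 1 relay gene was higher and 5 lower in GFP+ cells, and 4 higher and 6 lower in GFP- cells.

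Of 14 genes known to respond to Wnt signalling, 1 rose and 2 fell in inguinal GFP+ cells, and 3 rose and 3 fell in epididymal GFP+ cells. Axin2, the common readout of beta-catenin activity, read 104 ± 2.53 (SD, n = 3), 83.2 ± 10.3, 113 ± 6.49 and 90.9 ± 20.9 in the order given for Rnf43 and was called in none of the 5 comparisons. Other targets of the list did differ, and like Axin2 those given next were named after their values were seen. Nkd2 rose by 1.99 ± 0.16 in epididymal GFP+ cells (adjusted p = 4.57e-08). Nkd1 was lower in inguinal cells by -0.91 in GFP+ (adjusted p = 0.000532) and -0.87 in GFP- cells (adjusted p = 0.000656). Ccnd1 was higher in inguinal cells by 4.01 in GFP+ (adjusted p = 8.92e-13) and 2.88 in GFP- cells (adjusted p = 1.39e-11). Ccn5, a matricellular protein, fell by 0.52 ± 0.05 in inguinal GFP+ cells (adjusted p = 3.23e-06) and rose by 2.58 ± 0.05 in epididymal GFP+ cells (adjusted p = 1.29e-15). It was higher in inguinal cells by 1.76 in GFP+ (adjusted p = 3.34e-13) and 4.87 in GFP- cells (adjusted p = 6.79e-19). Bambi, a decoy receptor of the TGF-beta family, rose by 0.39 in inguinal GFP+ cells (adjusted p = 0.000991) and fell by 0.87 in epididymal GFP+ cells (adjusted p = 2.71e-08). Apcdd1, a membrane inhibitor of Wnt receptors, was lower in inguinal cells by -1.43 in GFP+ (adjusted p = 1.57e-10) and -1.39 in GFP- cells (adjusted p = 7.79e-11). Between depots 6 targets were higher and 2 lower in inguinal GFP+ cells, and 7 higher and 3 lower in inguinal GFP- cells.

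The GFP contrast itself differed between depots for 28 of the 87 pathway genes (32.2%, against 34.8% of all genes), 14 in each direction (all genes: 16.1% higher, 18.7% lower). After median centring of the arrays the split was 18 and 11. The 3 with the smallest adjusted p were Ccn5 (inguinal minus epididymal contrast -3.11 ± 0.07, adjusted p = 3.49e-14), Wnt5a (-1.78 ± 0.09, adjusted p = 2.38e-10) and Sfrp2 (8.57 ± 0.48, adjusted p = 6.26e-10), the last built on 2 groups under the silent level. For the R-spondins the same quantity, untested, was 3.79 ± 0.28 for Rspo1 and 1.53 ± 0.24 for Rspo2. Each of these was also built on 2 groups under the silent level. With a pseudocount of 1 they were 3.30 and 0.95, and with a pseudocount of 64 that of Rspo2 was 1.90.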

How the data were processed

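The authors' value table gives an intensity for each probe set, not log-transformed, from biotin-labelled cRNA per the labels' protocols. Signal algorithm, scaling and genome build are not given in the sources used here. Of 22626 probe sets, 20380 had 1 gene symbol, 691 several and 1555 none, and only the first kind was named. Symbols were updated through the RefSeq gene table of GRCm38.p6, and no coordinates were used. Deposited values were taken as log2(intensity + 16), with the probe set of highest mean per gene (12393 genes). Groups came from sample titles. limma 3.58.1 in R 4.3.3 (lmFit, eBayes with trend) was fitted over all 12 arrays, with Benjamini-Hochberg adjustment over all genes. The number of arrays limits the precision. The 4 pairwise comparisons and the depot difference of the GFP contrast were fitted.

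The genes examined and the lists were chosen with earlier results of these data known. Named pathway genes are the called gene with the smallest adjusted p per list, comparison and direction, the 3 with the smallest for the depot difference, Rnf43 and Zfp423. Lrp5, Lrp6, Ctnnb1, Axin2, Nkd1, Nkd2 and Ccnd1 were added later. The fit was tested on simulated data. Alternatives were other pseudocounts, scaling, probe set rule, filter, variance trend, replicate block and leaving out each array. Same-numbered arrays of different groups had deviations correlated between -0.06 and 0.04, so numbers were not taken as pairs.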

Additional observations from a re-analysis of the deposited data

Results flagged for a closer look

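Leaving aside the targets added later, the GFP contrast of 22 genes named above differed between depots by the interaction test in limma (inguinal minus epididymal contrast). Among proteoglycans, scaffolds and receptors the values were 3.79 for Gpc3, 0.49 for Sdc4, -0.20 for Iqgap1, -0.63 for Fzd2, -1.58 for Fzd4, 1.77 for Fzd6 and -0.80 for Fzd7. Fzd4 fell by 0.42 in inguinal and rose by 1.16 in epididymal GFP+ cells. Among ligands and secretion factors they were 1.24 for Wnt2, -1.78 for Wnt5a, -1.25 for Porcn and 0.27 for Wls. Among antagonists they were 8.57 for Sfrp2, 1.32 for Dkk2, -0.43 for Dkk3 and -0.34 for Igfbp4. In the relay they were -0.29 for Apc, 0.38 for Bcl9, 0.32 for Dvl1 and -0.16 for Gsk3a. Among targets they were 1.26 for Bambi and -3.11 for Ccn5. Zfp423, the gene of the sort, gave -1.56. The values of Sfrp2, Dkk2, Gpc3 and Zfp423 include 2 groups under the silent level each, so their sizes depend on the pseudocount.

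The adjusted p of these ran from 3.49e-14 (Ccn5) to 0.0257 (Igfbp4). Igfbp4 was no longer called when any of 5 arrays was omitted: replicate 1 or 2 of inguinal GFP+ (adjusted p = 0.0613 and 0.0557), replicate 3 of inguinal GFP- (0.0708), replicate 2 of epididymal GFP+ (0.0592) or replicate 1 of epididymal GFP- (0.0685). Its call was also lost after median centring (0.0537), without a variance trend (0.0985) and with the mean of probe sets (0.17). Iqgap1 was not called after median centring (0.107), without a trend (0.0737) or with the mean of probe sets (0.058), Gsk3a not after median centring (0.159), and Apc not with the mean of probe sets (0.292). Dkk2 was not called with a pseudocount of 1 (0.373) or without a trend (0.0519); its epididymal signal was under the silent level.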

How the results depend on the processing

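The counts of called genes and of called pathway genes stayed within 1.5 times of the reported counts in all 5 comparisons under every alternative run. On leaving out each array in turn the called pathway genes numbered 14 to 17 in inguinal and 32 to 39 in epididymal GFP+ against GFP- cells. They numbered 35 to 41 and 42 to 48 between depots in GFP+ and GFP- cells and 26 to 31 for the depot difference. No pairing of samples is stated in the labels; with the replicate number as a block the counts were 16, 37, 40, 44 and 28 in the same order, against 17, 37, 39, 45 and 28 without it. Of the recomputed differences of Rspo1, Rspo2, Lgr5 and Lgr6, 389 moved by less than the spread between replicates and 22 by more, all 22 with a pseudocount of 1 or 64; no difference whose 95% interval excluded 0 changed sign. Lgr5 had no value with weakly detected genes left out. For the named pathway genes other than those added later, 1559 recomputed results stayed on their side of the threshold. Among them 29 further calls were lost and 1 was gained, and no called difference changed direction.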
